A study of Mus musculus with 30 samples.

Results

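Glycogen is the glucose store of the heart, and the 9 genes described here encode the enzymes that build and break it and the subunits that bring protein phosphatase 1 (PP1) to it. They were chosen by name, as the rows of the deposited expression table with the symbols Ppp1r3a, Ppp1r3b, Ppp1r3c, Ppp1r3d, Gys1, Gbe1, Pygm, Pygb and Phka1. All 9 were found among its 13575 genes, and all 9 were among the 13256 genes tested. The list of names was drawn up with earlier results of these data known. The RNA came from mouse hearts with the atria trimmed, taken at 2 months of age and at ZT10, which is 10 hours after lights on. The label control marks 3 libraries, from mice with floxed alleles of both REV-ERB receptors (RevFloxed_Control). The label CM-RevDKO marks the other 3 and names a double knockout of REV-ERBα and REV-ERBβ in cardiomyocytes. The protocol for chromatin from this line names αMHC-Cre, a Cre recombinase under the cardiac alpha myosin heavy chain promoter, as present or absent on the doubly floxed background. If the RNA controls also lack Cre, an effect of Cre and the loss of the receptors cannot be told apart. The sources used here give neither the sex of the mice behind the RNA nor whether the replicates are separate animals, and the p-values therefore reflect the spread of these samples alone, which may be technical.

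Glycogen synthase links glucose units from UDP-glucose into chains, the branching enzyme adds side branches, and glycogen phosphorylase cuts glucose units off the ends. Phosphorylation switches these enzymes in opposite senses: phosphorylase kinase turns phosphorylase on, while PP1 turns phosphorylase off and glycogen synthase on. PP1 reaches them through targeting subunits of the PPP1R3 family, which bind glycogen and PP1 at once, and striated muscle is best known for the form encoded by Ppp1r3a. REV-ERBα and REV-ERBβ are circadian repressors that bind DNA at ROR elements, and samples from a single time of day do not separate a different level of a rhythmic gene from a different phase.

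The values were read as FPKM, fragments corrected for transcript length and for library size, although the table names no unit and TPM is possible. On either scale levels can be set side by side between genes. Fold changes are differences of log2(FPKM + 1) from limma, CM-RevDKO over control, and a gene was called when its Benjamini-Hochberg adjusted p over all tested genes was under 0.05. The libraries summed to between 678722 and 712158 FPKM, mitochondrially encoded transcripts held 36.9% to 41.0% of that, and sequencing depth is unknown. Nr1d1, which encodes REV-ERBα, had a mean of 20.5 FPKM in the control-labelled libraries and 50.3 FPKM in those with the CM-RevDKO label, against the direction of the label. Nr1d2, which encodes REV-ERBβ, had means of 35.7 and 27.4 FPKM, which missed the threshold (limma adjusted p = 0.175). The sources used here do not say which exons were deleted, so Nr1d1 and Nr1d2 do not check the labels. Every direction below rests on the labels. Arntl, the clock activator gene that REV-ERB represses, had means of 0.174 and 12.8 FPKM, without overlap (log2 fold change 3.56, limma adjusted p = 1.7e-05). Its direction was that of the label. In the abundant transcript mt-Atp8, CM-RevDKO replicates 1 and 2 differed from the rest (18989 and 19303 FPKM in them and 8032 to 9769 FPKM elsewhere). Cardiomyocyte markers were high in every library, with a sum over 10 genes of 30034 to 32212 FPKM in the control-labelled libraries and 30175 to 33890 FPKM in those with the CM-RevDKO label. Of these 10, 1 rose and none fell by limma. At an unadjusted p under 0.05, 3 were higher and 2 lower, beside 16.6% of all tested genes. The one that rose was Mybpc3, which encodes cardiac myosin-binding protein C, with means of 532 and 831 FPKM (limma adjusted p = 0.0469). That call was near the threshold and was not examined with libraries left out. The 2 lower ones were Pln, with means of 2207 and 1578 FPKM, and Myh6, with means of 4421 and 3496 FPKM. Both had values without overlap and were not called (limma adjusted p = 0.0598 and 0.177). Of the markers of skeletal muscle fibres, which also express Ppp1r3a and Pygm, 3 of 11 were measured (Myl1, Mybpc2 and Tnni2), none at 0 throughout; they summed to 17.0 to 23.3 and 13.1 to 25.1 FPKM, and none was called by limma or had an unadjusted p under 0.05.

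Among the 9 genes, the PP1 targeting subunit gene Ppp1r3a fell in the libraries with the CM-RevDKO label, and it was the single member past the limma test. None rose past it. Of all tested genes 2.50% were called, 1.24% lower and 1.26% higher, and the 1 of 9 stands beside that background. The members were chosen with earlier results of these data known. Their counts beside the shares of all tested genes are therefore no test of the set. At an unadjusted p under 0.05 there were 4 members, Ppp1r3a lower and Ppp1r3b, Ppp1r3c and Pygb higher, beside 16.6% of all tested genes. Scaled without the mitochondrially encoded genes, the calls over all genes split into 118 higher and 212 lower, instead of 167 and 165. For 4 members the groups had no overlap in their values (Ppp1r3a, Ppp1r3c, Pygb and Phka1), as for 23.1% of all tested genes. The median log2 fold change was 0.02 over the members and 0.02 over all tested genes. In bulk tissue, fewer cells of a type and less RNA per cell cannot be told apart.

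**Figure D1:**
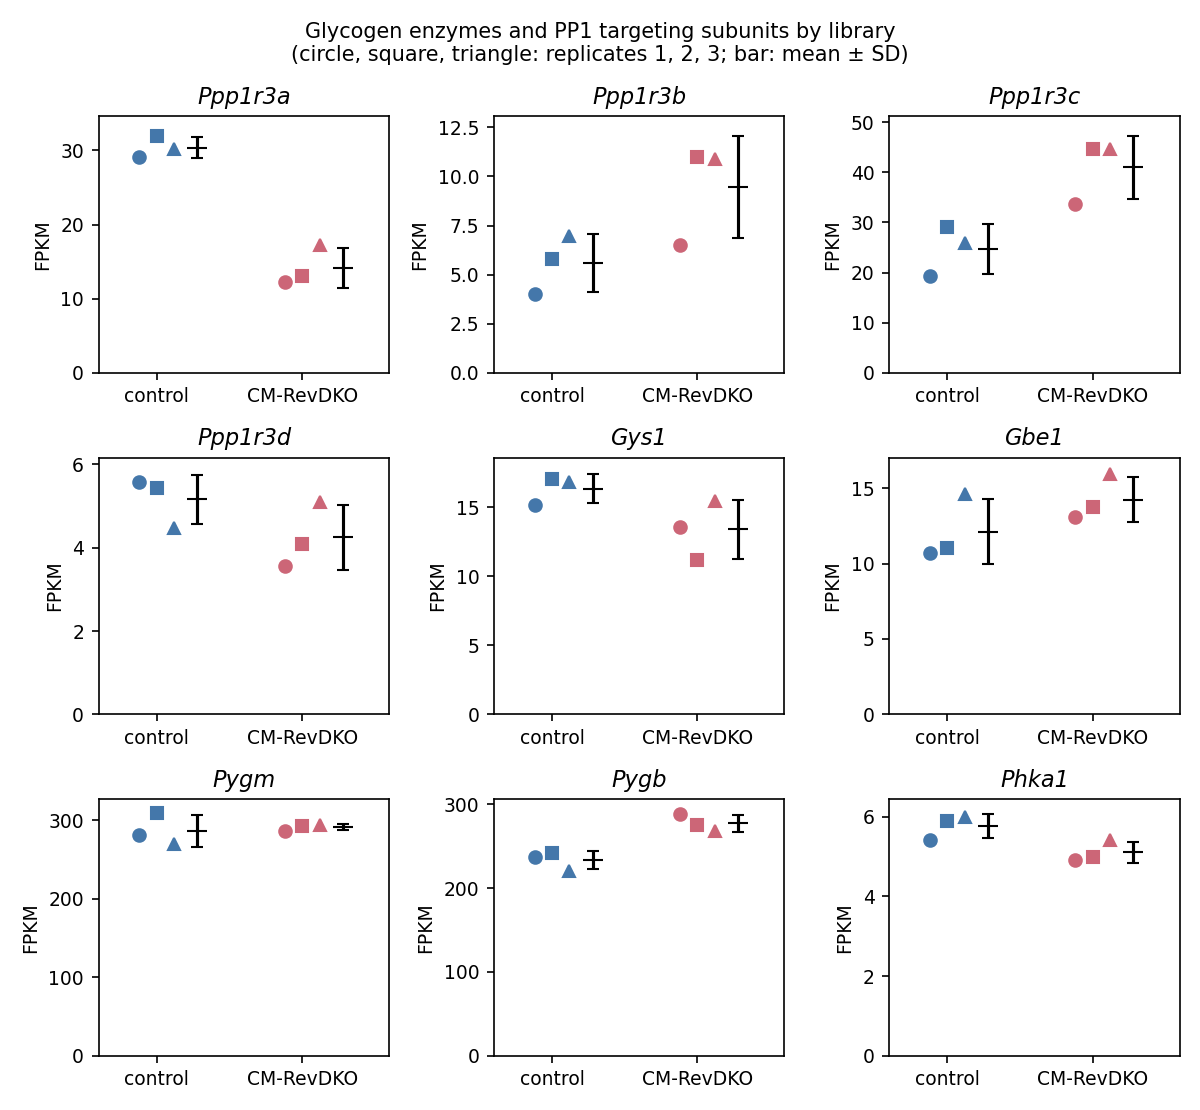
FPKM of each of the 9 genes (vertical axis, from 0) in the 3 libraries labelled control and the 3 labelled CM-RevDKO; circles, squares and triangles are replicates 1, 2 and 3, and the bar is the mean ± SD. Ppp1r3a lies between 29.1 and 31.9 FPKM in the control-labelled libraries and between 12.2 and 17.3 FPKM in the others, whereas the ranges of Pygm overlap.

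Of the PP1 targeting subunits, Ppp1r3a encodes the striated muscle form, called GM or RGL, which binds glycogen and the sarcoplasmic reticulum (ENSMUSG00000042717, chromosome 6, 14713822 to 14755274, GRCm38.p6). It stood at 29.1, 31.9 and 30.1 FPKM in control replicates 1, 2 and 3 and at 12.2, 13.0 and 17.3 FPKM in CM-RevDKO replicates 1, 2 and 3. All 3 libraries labelled CM-RevDKO were below the lowest control, and the 3 control values lay close together. The means were 30.4 ± 1.45 and 14.2 ± 2.73 FPKM (SD, n = 3), a ratio of 0.467, and the log2 fold change was -1.06 (SE 0.14, limma adjusted p = 0.0100). The call ended without control replicate 3 (adjusted p = 0.0514) and against a fold change of 1.5 (adjusted p = 0.648). It held narrowly without control replicate 1, control replicate 2 or CM-RevDKO replicate 2 (limma adjusted p = 0.0499, 0.0486 and 0.0483). Without CM-RevDKO replicate 1 or 3 the limma adjusted p was 0.0252 and 0.0065. Log2 fold changes were -0.97 to -1.20 over the 6 fits that left out 1 library.

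Atrial transcripts moved with the same groups. The 6 atrial markers summed to 199 to 289 FPKM in the control-labelled libraries and 763 to 1488 FPKM in those with the CM-RevDKO label. Of the 5 tested, 1 rose past the test and none fell. At an unadjusted p under 0.05, 4 were higher and none lower, beside 16.6% of all tested genes. The one that rose was Nppa, the gene of atrial natriuretic peptide, which the stressed ventricle is also known to express. It made up most of that sum, at 134 to 164 FPKM in the control-labelled libraries and 589 to 813 FPKM in those with the CM-RevDKO label (log2 fold change 2.19, limma adjusted p = 7.4e-04). Myl7, Sln and Myl4 were higher without passing the test (limma adjusted p = 0.186, 0.0892 and 0.266). The atrial light chain gene Myl7 was at 27.8 to 51.9 FPKM in the control-labelled libraries and at 288, 67.6 and 87.8 FPKM in CM-RevDKO replicates 1, 2 and 3. An alternative chosen after seeing the data took the mean log2 level of Myl7, Myl4 and Sln as an atrial covariate. With it the log2 fold change of Ppp1r3a was -0.85 and the call ended (limma adjusted p = 0.285). Myl7, Myl4 and Sln each had values without overlap between the groups. The covariate therefore separates the groups itself, and its part cannot be told apart from that of the labels. Without CM-RevDKO replicates 1 and 2, likewise chosen after seeing the data, the log2 fold change of Ppp1r3a was -0.78 from a single library. Ttn, the gene of the giant sarcomere protein titin, was at 36.6 and 43.2 FPKM in those 2 libraries, where Ppp1r3a was lowest too, and at 77.3 to 85.6 FPKM in the other 4. Ttn was not called (limma adjusted p = 0.322), and its part in the Ppp1r3a result was not tested.

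Ppp1r3c encodes the widely expressed form known as protein targeting to glycogen, PTG (ENSMUSG00000067279, chromosome 19, 36731731 to 36736604). Its values were 19.3, 29.1 and 25.8 FPKM in control replicates 1, 2 and 3 and 33.7, 44.6 and 44.7 FPKM in CM-RevDKO replicates 1, 2 and 3. Every library labelled CM-RevDKO lay above the highest control, but the spread within groups was wide, with replicate 1 the lowest in both. The means were 24.7 ± 5.0 and 41.0 ± 6.31 FPKM (SD, n = 3), and the log2 fold change of 0.72 (SE 0.18, 95% interval 0.31 to 1.12) did not pass the test (limma adjusted p = 0.0923). That interval is for this gene alone and is not adjusted for the number of genes.

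Ppp1r3b encodes the form called GL, first known from liver (ENSMUSG00000046794, chromosome 8, 35375694 to 35388139). It stood at 4.01, 5.80 and 6.94 FPKM in control replicates 1 to 3 and at 6.49, 11.0 and 10.9 FPKM in CM-RevDKO replicates 1 to 3. CM-RevDKO replicate 1 lay within the control range, and the others lay above it. The log2 fold change was 0.66 (SE 0.23, 95% interval 0.11 to 1.21), which did not pass the test (limma adjusted p = 0.215). With the atrial covariate, the log2 fold changes of Ppp1r3b and Ppp1r3c were 1.18 and 1.13, and neither passed the test (limma adjusted p = 0.317 and 0.150). That covariate was chosen after seeing the data and itself separates the groups.

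Ppp1r3d, which encodes the targeting subunit R6 (ENSMUSG00000049999, chromosome 2, 178411206 to 178414463), had the lowest mean of these 4 genes in both groups. Its values were 5.58, 5.43 and 4.48 FPKM in control replicates 1 to 3 and 3.57, 4.09 and 5.11 FPKM in CM-RevDKO replicates 1 to 3. These ranges overlapped, and the log2 fold change was -0.23 (95% interval -0.56 to 0.09, limma adjusted p = 0.457). In the annotation 760 bases of Ppp1r3d lie within the gene Fam217b, so reads of that stretch may be shared. Ppp1r3e and Ppp1r3f, further members of the family, had means of 0.391 and 1.51 FPKM in the control-labelled libraries and 0.721 and 1.21 FPKM in those with the CM-RevDKO label, and neither passed the test (limma adjusted p = 0.656 and 0.582).

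The summed level of the targeting subunits hardly separated the groups, while its make-up did. Ppp1r3a to Ppp1r3d together reached 57.9, 72.2 and 67.4 FPKM in control replicates 1, 2 and 3 and 56.0, 72.7 and 78.0 FPKM in CM-RevDKO replicates 1, 2 and 3. Ppp1r3a made up 50.2%, 44.2% and 44.7% of that sum in the control-labelled libraries and 21.8%, 17.9% and 22.2% in those with the CM-RevDKO label. Ppp1r3c made up 33.3% to 40.3% and 57.3% to 61.3%, and Ppp1r3b 6.93% to 10.3% and 11.6% to 15.1%. Thus Ppp1r3c was at 0.663 to 0.911 of the Ppp1r3a level in the control-labelled libraries and at 2.58 to 3.43 times it in those with the CM-RevDKO label, with no overlap. The ratio of Ppp1r3c to Ppp1r3b overlapped between the groups, at 3.72 to 5.02 and 4.05 to 5.20. The shares follow from the values above and carry no test of their own.

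**Figure D2:**
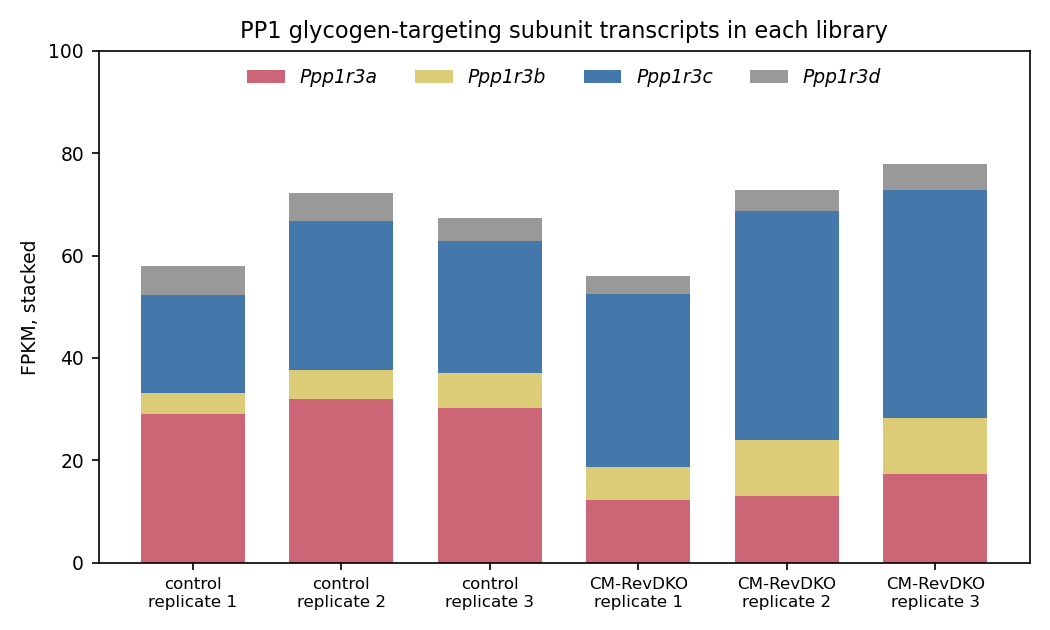
Stacked FPKM (vertical axis, from 0) of Ppp1r3a, Ppp1r3b, Ppp1r3c and Ppp1r3d in each of the 6 libraries. The bar heights overlap between the groups, while the Ppp1r3a segment is smaller and the Ppp1r3c segment larger in the 3 libraries labelled CM-RevDKO.

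The promoters of Ppp1r3a and Ppp1r3c are shown because Ppp1r3a was the member that was called and Ppp1r3c had the largest positive fold change among the members on the log2(FPKM + 1) scale. Ppp1r3b ranked above Ppp1r3c by the ratio of means (1.69 against 1.66). It also did so in some alternatives, among them a pseudocount of 0.1, the atrial covariate, and the fits without CM-RevDKO replicate 1 or without control replicate 3. Each runs from 250 bases before to 50 bases after the annotated start, on the minus strand of GRCm38.p6, and comes from RefSeq, whose promoter table matched 8 of the 9 members, all but Ppp1r3b. Capitals mark a match to TATAAA or to the MEF2 consensus in Ppp1r3a, and to the E-box CACGTG in Ppp1r3c.
Ppp1r3a, chr6:14755225-14755524: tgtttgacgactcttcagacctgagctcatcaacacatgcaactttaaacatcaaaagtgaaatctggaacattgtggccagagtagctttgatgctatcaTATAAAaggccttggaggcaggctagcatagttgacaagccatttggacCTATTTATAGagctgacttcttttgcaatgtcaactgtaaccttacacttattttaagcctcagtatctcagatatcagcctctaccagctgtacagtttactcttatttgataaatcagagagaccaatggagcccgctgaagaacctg
Ppp1r3c, chr19:36736555-36736854: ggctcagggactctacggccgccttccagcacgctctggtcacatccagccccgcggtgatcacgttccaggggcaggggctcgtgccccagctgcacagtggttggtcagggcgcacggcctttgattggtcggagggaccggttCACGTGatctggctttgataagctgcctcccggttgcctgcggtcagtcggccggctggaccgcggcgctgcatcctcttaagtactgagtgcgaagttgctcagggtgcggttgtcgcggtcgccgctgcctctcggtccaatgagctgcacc

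These windows differed in base composition and in the letters they hold. Ppp1r3a had 41% G and C and 2 CpG dinucleotides, a ratio of observed to expected CpG of 0.159, and Pygm was alike in that ratio, at 0.157. Ppp1r3c had 65.3% G and C and 26 CpG (ratio 0.813), and the other 5 windows had ratios of 0.553 to 1.09. Over all 32817 promoters the median ratio was 0.383, and 28.7% had a ratio of 0.2 or less. The MEF2 consensus, the site of a muscle transcription factor family, began 100 bases before the start of Ppp1r3a and was in 3.19% of all promoters. TATAAA, searched on both strands, began 149 bases before the start, with a second match on the opposite strand that overlaps the MEF2 match; 13.6% of promoters hold it. The core of the ROR element, AGGTCA, was in none of the 8 windows and in 16.3% of all promoters; its longer form TAGGTCA was in 2.61%. The D-box forms TTATGNAA and TTACGTAA, bound by E4BP4 and its relatives, were in none of the 8 and in 3.39% and 0.119% of all. CACGTG began 104 bases before the start of Ppp1r3c and 226 bases before that of Ppp1r3d, and 7.15% of promoters hold it. For the ROR and D-box letters, 8 windows are too few to tell a count of none from these shares. Sites outside the windows of 300 bases were not searched. TATAAA and the MEF2 consensus were searched after the sequences were seen, and a match, or the lack of one, is a description only.

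Of the enzymes that build glycogen, Gys1 encodes the muscle form of glycogen synthase (ENSMUSG00000003865, chromosome 7, 45434839 to 45456617). It was at 15.2, 17.1 and 16.9 FPKM in control replicates 1 to 3 and at 13.6, 11.2 and 15.5 FPKM in CM-RevDKO replicates 1 to 3. CM-RevDKO replicate 3 lay above the lowest control, and the other libraries labelled CM-RevDKO lay below all controls. The log2 fold change was -0.28 (SE 0.13, 95% interval -0.58 to 0.02) and did not pass the test (limma adjusted p = 0.335). The first 1333 bases of Gys1 overlap Ruvbl2, which had means of 8.95 and 7.71 FPKM, and the sources used here do not say whether the counting used strand.

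Gbe1 encodes the branching enzyme (ENSMUSG00000022707, chromosome 16, 70313949 to 70569720). Its values were 10.7, 11.0 and 14.6 FPKM in control replicates 1 to 3 and 13.1, 13.7 and 15.9 FPKM in CM-RevDKO replicates 1 to 3. The ranges overlapped, and the log2 fold change of 0.22 (95% interval -0.10 to 0.55) did not pass the test (limma adjusted p = 0.472). Synthase and branching enzyme had fold changes of opposite sign, but neither passed the test and both intervals span no change. The ratio of Gys1 to Gbe1 was 1.41, 1.54 and 1.15 in the control-labelled libraries. It was 1.04, 0.816 and 0.970 in those with the CM-RevDKO label, without overlap. This ratio was not planned, carries no test, and has no share over other gene pairs beside it.

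Of the enzymes that break glycogen, Pygm encodes the muscle phosphorylase (ENSMUSG00000032648, chromosome 19, 6384408 to 6398464) and had the highest mean of the 9 genes in both groups. It was at 282, 309 and 269 FPKM in control replicates 1 to 3 and at 287, 293 and 294 FPKM in CM-RevDKO replicates 1 to 3. All 3 values labelled CM-RevDKO fell inside the control range. The log2 fold change was 0.02 with a 95% interval of -0.17 to 0.22 (limma adjusted p = 0.924), a fold of 0.886 to 1.17, and its sign turned under quantile normalization and when scaled without mitochondrially encoded genes.

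Pygb, the phosphorylase form named for brain (ENSMUSG00000033059, chromosome 2, 150786796 to 150831748), was nearly as abundant. It stood at 237, 242 and 221 FPKM in control replicates 1 to 3 and at 288, 276 and 268 FPKM in CM-RevDKO replicates 1 to 3. All libraries labelled CM-RevDKO were above all controls, but by a small margin: the log2 fold change was 0.25 (SE 0.08, 95% interval 0.06 to 0.44) and did not pass the test (limma adjusted p = 0.185). Pygb was 43.9% to 45.7% of the summed phosphorylase FPKM of Pygm and Pygb in the control-labelled libraries and 47.7% to 50.1% in those with the CM-RevDKO label. The sum of the pair was 29.1 to 34.2 times the Gys1 level in the control-labelled libraries and 36.4 to 50.6 times in those with the CM-RevDKO label. Pygl, the liver form, was low, with means of 2.21 and 4.25 FPKM that did not pass the test (log2 fold change 0.71, limma adjusted p = 0.0800).

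Phka1 encodes the muscle form of the regulatory alpha subunit of phosphorylase kinase (ENSMUSG00000034055, chromosome X, 102513975 to 102644301). It stood at 5.43, 5.89 and 6.01 FPKM in control replicates 1 to 3 and at 4.93, 4.998 and 5.42 FPKM in CM-RevDKO replicates 1 to 3. The highest value labelled CM-RevDKO was just under the lowest control, and the log2 fold change of -0.15 (95% interval -0.37 to 0.08) did not pass the test (limma adjusted p = 0.495). Phka2, the liver form of that subunit, had means of 5.10 and 8.04 FPKM, a log2 fold change of 0.57 that just missed the threshold (limma adjusted p = 0.0548). With a filter at a mean of 5 FPKM, which leaves fewer genes to adjust over, Phka2 passed (adjusted p = 0.0467). Phka1 made up 55.5%, 52.8% and 51.3% of the pair's summed FPKM in control replicates 1 to 3 and 38.8%, 39.5% and 38.5% in CM-RevDKO replicates 1 to 3. The gap between the groups in this share was wide beside the spread within them, but the share carries no test of its own.

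**Figure D3:**
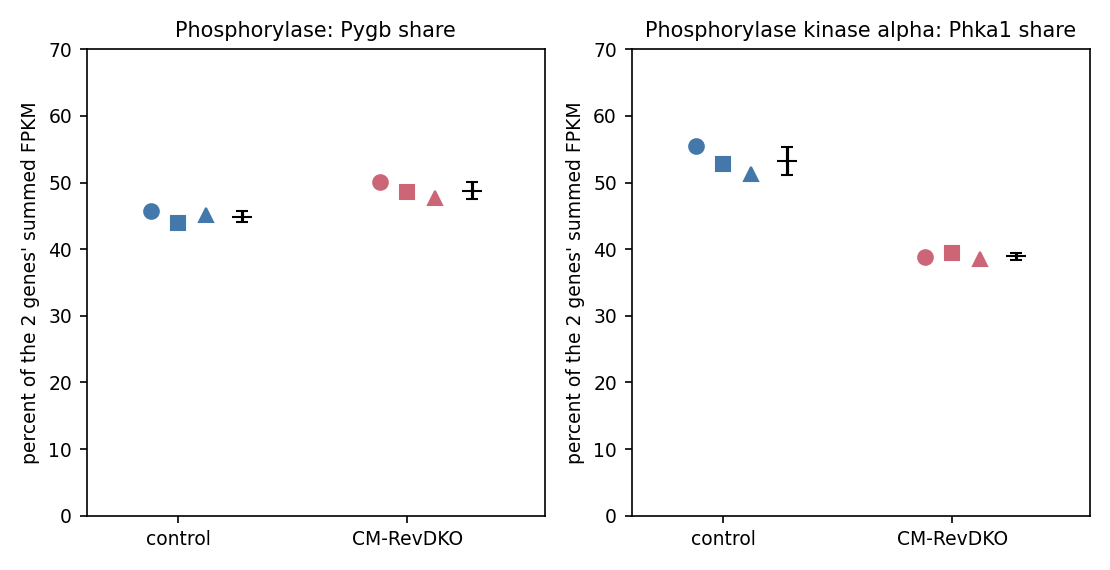
Share of Pygb in the summed FPKM of Pygm and Pygb, left, and of Phka1 in the summed FPKM of Phka1 and Phka2, right (percent, vertical axes from 0), in each library; the bar is the mean ± SD of 3. The Phka1 share is 51.3% or more in the control-labelled libraries and 39.5% or less in those with the CM-RevDKO label.

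Ordered by mean FPKM, the control-labelled libraries ran Pygm, Pygb, Ppp1r3a, Ppp1r3c, Gys1, Gbe1, Phka1, Ppp1r3b and Ppp1r3d. Neighbours whose ranges overlapped were Ppp1r3a with Ppp1r3c, and Phka1, Ppp1r3b and Ppp1r3d in turn. The libraries labelled CM-RevDKO ran Pygm, Pygb, Ppp1r3c, Gbe1, Ppp1r3a, Gys1, Ppp1r3b, Phka1 and Ppp1r3d, so that Ppp1r3a moved from rank 3 to rank 5 and Ppp1r3c from rank 4 to rank 3. There the ranges of Pygm and Pygb overlapped, as did those of Gbe1, Ppp1r3a and Gys1 in turn, and those of Phka1 and Ppp1r3d.

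Most other genes of glycogen metabolism did not pass the test. Of 23 listed, 21 were tested, none rose and 1 fell by limma, with a median log2 fold change of 0.04. At an unadjusted p under 0.05, 2 were higher and 2 lower, beside 16.6% of all tested genes. Values did not overlap between the groups for Ugp2, Pgm2 and Gsk3b, which were lower, and Pygl, Phka2 and Gyg, which were higher, beside 23.1% of all tested genes. Gsk3b, a glycogen synthase kinase gene, had means of 8.44 and 5.69 FPKM, with 3.26 FPKM in CM-RevDKO replicate 3 (log2 fold change -0.55, limma adjusted p = 0.302). The gene that fell past the test was Ugp2, which encodes the enzyme that makes UDP-glucose, the substrate of glycogen synthase. Its values were 75.8, 84.7 and 83.1 FPKM in control replicates 1 to 3 and 52.9, 56.2 and 62.7 FPKM in CM-RevDKO replicates 1 to 3, without overlap. The log2 fold change was -0.50 (SE 0.10, limma adjusted p = 0.0480). This call was marginal: it ended when any library but CM-RevDKO replicate 3 was left out (adjusted p up to 0.159), and with quantile normalization, equal medians or no intensity trend (adjusted p = 0.0536, 0.0690 and 0.0859).

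Phosphoglucomutase, which supplies glucose 1-phosphate to the step of Ugp2, had non-overlapping values as well. The abundant form carries the symbol Pgm2 in the deposited table (ENSMUSG00000025791, Pgm1 in the name table used here). Its means were 97.7 and 74.0 FPKM, and its log2 fold change of -0.40 did not pass the test (limma adjusted p = 0.0683), except under quantile normalization (adjusted p = 0.0215). Gyg, which encodes glycogenin, the primer of glycogen, had means of 60.5 and 66.8 FPKM (limma adjusted p = 0.418). Gaa, the lysosomal glucosidase, had means of 32.1 and 26.5 FPKM (limma adjusted p = 0.462). The catalytic subunit genes of PP1 that the targeting subunits bind, Ppp1ca, Ppp1cb and Ppp1cc, had means of 147, 54.4 and 29.6 FPKM in the control-labelled libraries and 165, 56.7 and 31.0 FPKM in those with the CM-RevDKO label, and none passed the test.

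**Figure D4:**
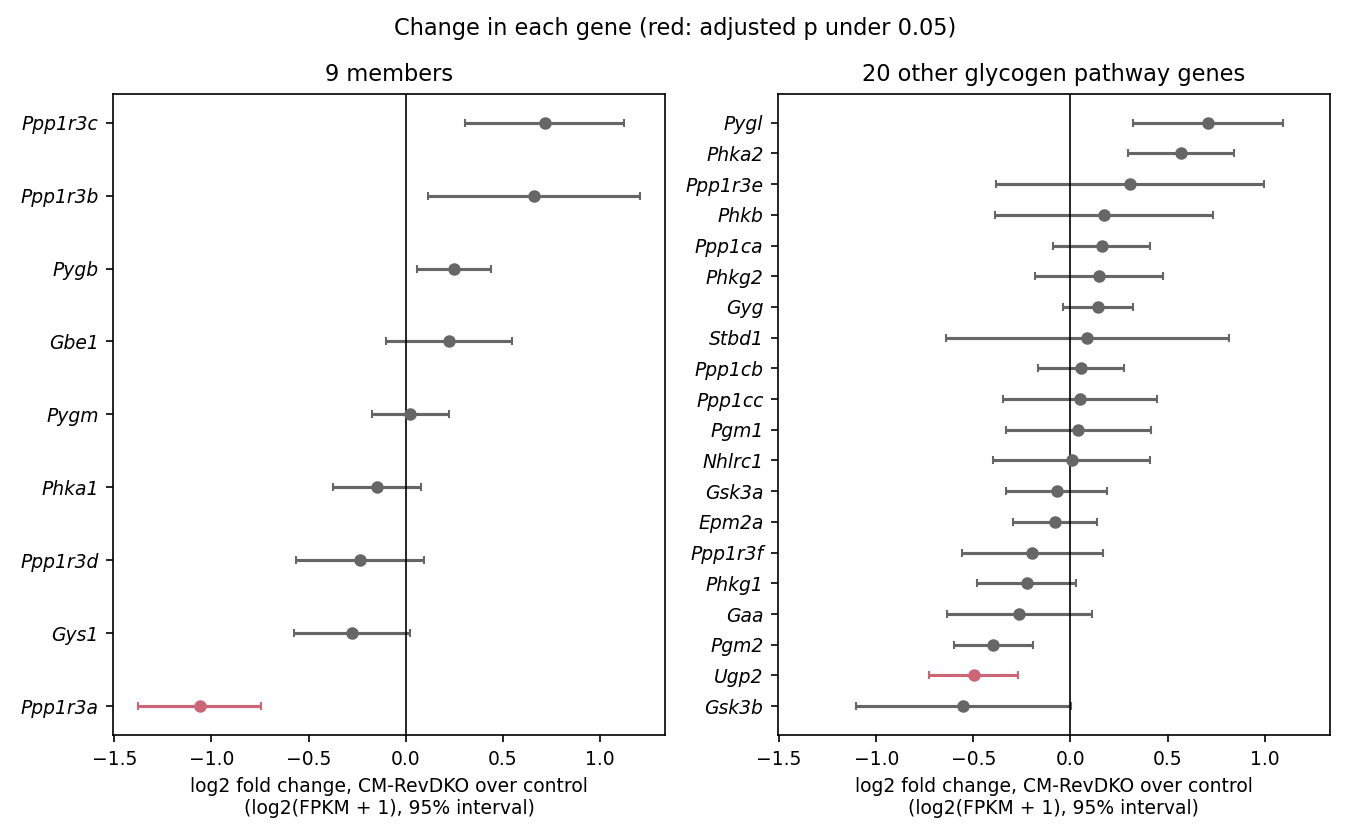
Log2 fold change, CM-RevDKO over control, on the log2(FPKM + 1) scale with its 95% interval from limma (horizontal axis), for the 9 members, left, and 20 of the 21 other glycogen pathway genes tested, right; red marks an adjusted p under 0.05. Ppp1r3a, at -1.06, and Ugp2, at -0.50, are the plotted genes that were called.

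Kinases that act on these enzymes were measured from fixed lists. AMP-activated protein kinase binds glycogen through its beta subunit and phosphorylates glycogen synthase. Of its 7 subunit genes, 1 fell and none rose by limma. The same counts held at an unadjusted p under 0.05, beside 16.6% of all tested genes. Prkab1, which encodes the beta 1 subunit, had values of 20.5, 20.2 and 20.2 FPKM in control replicates 1 to 3 and 11.5, 12.2 and 12.7 FPKM in CM-RevDKO replicates 1 to 3. Those groups lay far apart beside their spread (log2 fold change -0.70, SE 0.09, limma adjusted p = 0.00828), and the call held with each library left out (adjusted p up to 0.0499). Against a fold change of 1.5, none of the calls of Prkab1, Ugp2, Prkar1a, Pitpnm2, Dbt and Slc7a1 described here was kept. Prkab2, the beta 2 form, had means of 10.3 and 12.03 FPKM, short of the threshold (limma adjusted p = 0.342).

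Protein kinase A activates phosphorylase kinase, and calmodulin is built into that enzyme. Of 9 genes of protein kinase A subunits and calmodulin, 1 rose and none fell by limma. At an unadjusted p under 0.05, 2 were higher and none lower, beside 16.6% of all tested genes. Prkar1a, which encodes a regulatory subunit that holds the kinase inactive, was at 94.5, 96.6 and 104 FPKM in control replicates 1 to 3 and at 152, 179 and 147 FPKM in CM-RevDKO replicates 1 to 3. Its log2 fold change was 0.68 (SE 0.10, limma adjusted p = 0.0189). The call ended with any 1 control library left out, and with CM-RevDKO replicate 2 left out (0.1004 at most for the adjusted p), and with quantile normalization or when scaled without mitochondrially encoded genes (adjusted p = 0.0503 and 0.0531). With the atrial covariate, the calls of Ugp2, Prkab1 and Prkar1a all ended (limma adjusted p = 0.629, 0.250 and 0.250). That covariate was chosen after seeing the data and itself separates the groups. None of 9 other partners of PP1 passed the limma test or had an unadjusted p under 0.05, and the smallest p among them belonged to Ppp1r12a, a myosin phosphatase subunit, with means of 8.93 and 10.2 FPKM (limma adjusted p = 0.432).

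Across the 6 libraries, the 5 genes whose log2(FPKM + 1) followed Ppp1r3a most closely, among 12229 with a mean of at least 1 FPKM, included Ubxn10, Pitpnm2, Dbt and Slc7a1, with Pearson correlations of 0.997, 0.994, 0.994 and 0.993. The points are the same libraries in 2 groups, so any gene with lower values in the libraries with the CM-RevDKO label scores high. Slc7a1, an amino acid transporter, had means of 7.63 and 3.61 FPKM, and Dbt, a subunit of the branched-chain keto acid dehydrogenase, 22.1 and 14.0 FPKM. Pitpnm2, Dbt and Slc7a1 passed the test (limma adjusted p = 0.0318, 0.0364 and 0.0137), and each lost its call when some single libraries were left out (adjusted p up to 0.1201, 0.124 and 0.0706). Without the intensity trend the calls of Pitpnm2 and Dbt ended as well (adjusted p = 0.0512 and 0.0575).

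Within groups, the members did not all vary alike. Ppp1r3b and Ppp1r3c were both lowest in replicate 1 of each group, at -0.37 and -0.32 from the control mean and -0.45 and -0.26 from the CM-RevDKO mean on the log2 scale. Among the libraries with the CM-RevDKO label, 7 of the 9 members were highest in replicate 3, all but Ppp1r3b and Pygb. For Ppp1r3c and Pygm the lead over CM-RevDKO replicate 2 was slight (44.7 against 44.6 and 294 against 293 FPKM). The share of all tested genes highest in that library was not computed. Adipocyte markers, for which 7 genes were measured, summed to 702 to 830 FPKM in the control-labelled libraries and 601 to 1134 FPKM in those with the CM-RevDKO label. None was called by limma, and 4 were higher and none lower at an unadjusted p under 0.05, beside 16.6% of all tested genes. The part of adipocyte markers in these values was not tested. Fabp4, which endothelial cells also express, made up most of that sum, at 688 to 807 and 581 to 1019.6 FPKM. The narrower markers Adipoq, Cfd and Retn had means of 1.052, 7.43 and 0.237 FPKM in the control-labelled libraries and 4.39, 33.4 and 1.99 FPKM in those with the CM-RevDKO label, highest in CM-RevDKO replicates 1 and 2 (limma adjusted p = 0.185, 0.239 and 0.158). Markers of erythrocytes, of smooth muscle and pericytes, and of glia and neurons also had none called by limma. In each list 2 were higher and none lower at an unadjusted p under 0.05, beside 16.6% of all tested genes. The 5 erythrocyte genes measured summed to 5010.05 to 9005 and 8703 to 11003 FPKM, the 7 of smooth muscle and pericytes to 184 to 229.5 and 221 to 246 FPKM and the 3 of glia and neurons to 6.94 to 9.43 and 10.6 to 13.2 FPKM in the control-labelled libraries and those with the CM-RevDKO label, and their part was not tested either.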

How the data were processed

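RNA-seq of 6 heart libraries was analysed, and the 24 ChIP and Cut&Run samples among the 30 were not used here. The authors deposited 1 value per gene and library, read here as FPKM; the header names no unit and TPM is possible, which differs by 1 factor per library. HISAT2, StringTie and mm10 are named per the submitters' processing notes, without versions. Columns were matched to samples by their group and number. No depth could be read from the values: of 1708 low genes, at most 3 shared a ratio between 2 libraries to 4 decimals, so no counting interval is given. No 2 libraries were identical.

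Genes whose mean reached 0.5 FPKM were fitted as log2(FPKM + 1) with limma 3.58.1 in R 4.3.3 (group as the only term, intensity trend), two-sided, with Benjamini-Hochberg adjustment; such fold changes understate changes of low genes. The script was tested on simulated data. The members, gene lists and tests were chosen with earlier results of these data known. Named genes are all members, genes of the fixed pathway lists and the 5 genes most like the member of smallest p. Nr1d1, Nr1d2 and Arntl were named as planned label checks, but Nr1d1 and Nr1d2 could not serve as such. Marker genes come from the fixed marker lists; those named from them, and mt-Atp8, were picked after their values were seen, and Ruvbl2 and Fam217b because they overlap a member in the annotation. Alternatives varied the pseudocount, filter, scaling, trend, replicate term, test fold and libraries. Coordinates (1-based) and promoters come from RefSeq on GRCm38.p6, which is mm10; protein sequences were not used here. The values of 2 genes that the rule names are not reported here.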

Additional observations from a re-analysis of the deposited data

How the results depend on the processing

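Ppp1r3a kept its direction under all 18 alternatives, with log2 fold changes of -0.78 to -1.20, and the other members kept theirs and stayed short of the threshold, except that Pygm, not called anywhere, turned to -0.033 with quantile normalization and -0.045 when scaled without mitochondrially encoded genes, and ranged from -0.019 to 0.080 with 1 library left out. The count of members called, 1, was 0 against a fold change of 1.5 and ranged from 0 to 1 with 1 library left out. The count of other glycogen pathway genes called, 1, was 2 with a mean of at least 5 FPKM, where Phka2 joined Ugp2. It was 0 with equal medians, without the intensity trend and against a fold change of 1.5, ranged from 0 to 1 with 1 library left out, and was again 1 with quantile normalization, where the gene was Pgm2 and not Ugp2. The count over all genes, 332, was 35 against a fold change of 1.5 and ranged from 120 to 322 with 1 library left out. Of the alternatives chosen after seeing the data, the atrial covariate gave 0, 0 and 30 for these counts, and leaving out CM-RevDKO replicates 1 and 2 gave 0, 0 and 21, with fewer samples. For the other changes the cause was not tested. Ppp1r3d has no value with a mean of at least 5 FPKM. Depth is unknown, so its limit on low genes such as Ppp1r3e cannot be given.

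The labels number the replicates 1 to 3 in both groups, but same-numbered libraries did not deviate together (correlations of -0.04, -0.06 and 0.09 over tested genes). This does not settle whether they share more than a number, and Ppp1r3b and Ppp1r3c were both lowest in replicate 1 of each group. With a replicate block, 1 member was called (Ppp1r3a, adjusted p = 0.0450), 0 other glycogen pathway genes and 115 genes in all; Ppp1r3c and Ppp1r3b had adjusted p = 0.0535 and 0.0778. The calls of Ugp2, Prkab1, Prkar1a, Pitpnm2, Dbt and Slc7a1 ended with it (adjusted p = 0.0998, 0.0555, 0.0774, 0.0780, 0.0889 and 0.0666). The best match to its own number held for 1 of the 3 control libraries.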
